A study of Mus musculus with 6 samples.

Results

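The genes described here serve DNA replication licensing and deoxynucleotide supply. They are the 6 subunits of the MCM helicase (Mcm2, Mcm3, Mcm4, Mcm5, Mcm6 and Mcm7), the helicase loader Cdc6, the sliding clamp Pcna, and the nucleotide enzymes Rrm2 and Tyms. The 10 genes were taken by name, each through the probes whose transcript accession belongs to it, and the brightest probe stood for the gene. All 10 were well above background on all 6 arrays, among 32430 genes and unnamed probes tested, of which 17510 were named genes.

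Lung RNA was measured on one-colour Agilent arrays, 1 array per mouse, in 2 groups of 3. The antithrombin mice received recombinant antithrombin, the plasma inhibitor of thrombin, at 750 IU/kg, given at 3 h and 24 h after lipopolysaccharide, and the saline mice received saline in its place. All 6 were male C57BL6 mice aged 10 weeks that had been starved for 16 h and then injected intraperitoneally with lipopolysaccharide, a bacterial endotoxin, at 20 mg/kg, and their lungs were taken at 30 h. No mouse without endotoxin was analysed here, so each value sets antithrombin against saline under endotoxin.

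Replication origins are licensed in the G1 phase of the cell cycle, when the origin recognition complex, Cdc6 and Cdt1 load the MCM helicase onto DNA. At entry into S phase the loaded helicase is activated by Cdc45 and the GINS complex, the DNA polymerases run on the Pcna clamp, and ribonucleotide reductase and thymidylate synthase supply deoxynucleotides. Many genes of these steps are targets of E2F transcription factors and are transcribed most strongly around the G1/S transition. The uninjured adult lung holds few cycling cells, and epithelial, endothelial and immune cells can enter the cycle after injury.

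E2F factors bind sites built on the words TTTCCCGC, TTTGGCGC, TTTCGCGC and TTTGCCGC, and the CCAAT box, bound by NF-Y, is frequent in promoters of cell cycle genes. RefSeq windows of assembly GRCm38.p6, from 250 bases before to 50 after a start site, were found for 9 of the 10 genes (10 windows, with a pair for Mcm7), all but Mcm4. Searched on both strands, at least 1 of the 4 E2F words stood in 5 of these 10 windows, against 2.26% of all 32851 windows of the table. The CCAAT box stood in 8 of the 10 windows, against 37.4% of all windows. The stretches below carry the E2F words of the helicase and loader genes, in capitals, read 5′ to 3′ on the strand of the gene, with the position counted from the start site.
Mcm3 (chr1:20820263-20820309, minus strand, 4 to 50): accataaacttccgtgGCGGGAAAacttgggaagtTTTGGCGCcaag
Mcm5 (chr8:75109332-75109391, plus strand, -177 to -118): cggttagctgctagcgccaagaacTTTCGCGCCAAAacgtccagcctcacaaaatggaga
Mcm6 (chr1:128359735-128359825, minus strand, -120 to -30): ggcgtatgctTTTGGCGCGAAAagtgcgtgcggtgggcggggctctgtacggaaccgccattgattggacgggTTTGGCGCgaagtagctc
Mcm7 (chr5:138171850-138172058, minus strand, -175 to 34): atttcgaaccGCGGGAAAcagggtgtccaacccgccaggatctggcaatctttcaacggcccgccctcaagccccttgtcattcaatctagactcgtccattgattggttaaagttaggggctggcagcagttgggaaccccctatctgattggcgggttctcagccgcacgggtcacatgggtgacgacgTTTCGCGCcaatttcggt
Cdc6 (chr11:98907987-98908046, plus strand, -164 to -105): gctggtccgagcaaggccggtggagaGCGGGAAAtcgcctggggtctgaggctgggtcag

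In Mcm5, and at the first site of Mcm6, words on opposite strands overlap, so the capitals there run together. The windows of Mcm2, Pcna, Rrm2 and Tyms held none of the 4 E2F words as spelled here. Among them are Mcm2 and Rrm2, shown next with their CCAAT box in capitals, because their differences between groups were among the largest of the 10 genes. Tyms, with a difference of like size, held neither an E2F word nor a CCAAT box in its window, and none is shown for it.
Mcm2 (chr6:88898923-88898982, minus strand, -202 to -143): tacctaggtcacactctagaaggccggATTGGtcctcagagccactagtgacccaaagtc
Rrm2 (chr12:24708177-24708236, plus strand, -77 to -18): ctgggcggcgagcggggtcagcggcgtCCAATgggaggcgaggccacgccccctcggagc

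**Figure D1:**
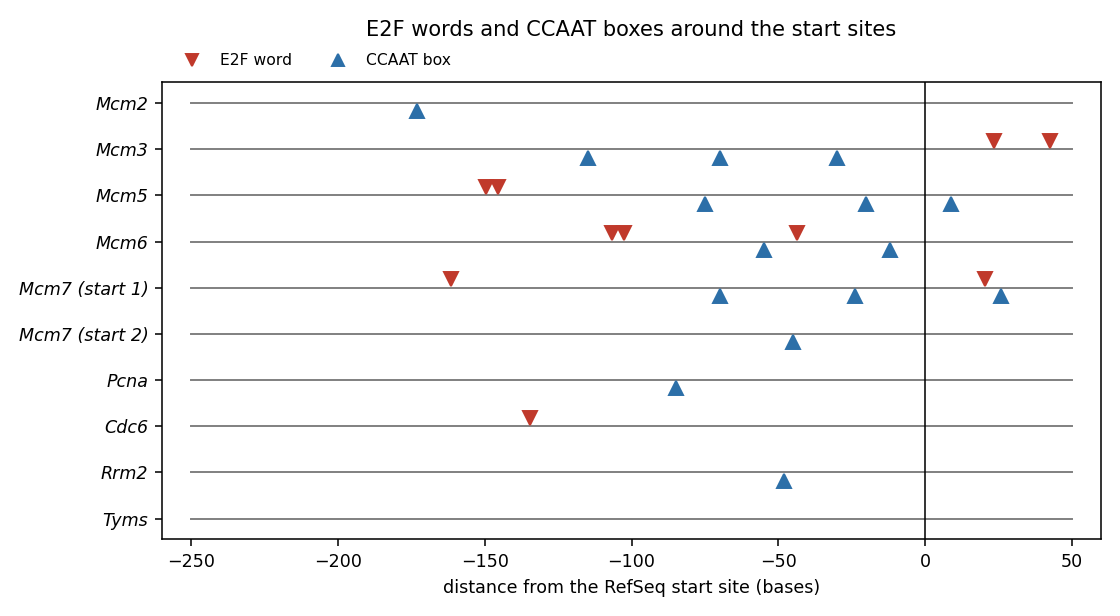
Positions of E2F words (triangles pointing down) and CCAAT boxes (triangles pointing up) in the RefSeq windows of 9 genes, as the distance in bases from the start site. The E2F words lie in Mcm3, Mcm5, Mcm6, 1 of the Mcm7 windows and Cdc6, and CCAAT boxes lie in 8 of the 10 windows.

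Most of the CCAAT boxes lay upstream of the start site, as the map of E2F words and CCAAT boxes shows. Across the other genes of the same steps, listed below, an E2F word stood in 31.8% of the 22 windows of origin licensing and firing genes and in 32.4% of the 34 windows of replication fork genes. It stood in 3.33% of the 30 windows of nucleotide synthesis genes and in 4.76% of the 21 windows of mitosis genes. The CCAAT box stood in 81% of the mitosis windows, so its high share was not particular to the 10 genes. Its share was 50% for origin licensing and firing, 44.1% for the replication fork and 40% for nucleotide synthesis. These matches describe letters in a window and were not tied to binding.

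The lungs held the transcripts of lung tissue. All 11 markers of that list were tested, and the surfactant gene Sftpc, the alveolar type 1 gene Ager and the endothelial gene Pecam1 were well above background on all 6 arrays. From 69.8% to 72.1% of probes passed the scanner's background test per array, and none was saturated. Saline mouse 2 stood apart from its group. On the first principal component of all genes tested, which held 51.8% of the variance, it lay at 7.94, while the antithrombin mice lay between 24.8 and 49.4 and saline mice 1 and 3 at -48.2 and -62.4. Calls that change when that mouse is left out are given with the results. Over all genes tested, 0.00617% (2 genes) passed an adjusted p of 0.05, 1 higher (0.00308%) and 1 lower (0.00308%), and neither was among the 10.

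The comparison asks how lung transcripts differ when antithrombin follows endotoxin. All 10 genes had a positive difference, antithrombin minus saline, from 0.27 for Pcna to 0.73 for Mcm5 on the log2 scale, up to 1.66-fold on the linear scale. The median was 0.46, against -0.0459 for the median of all genes tested and against a positive sign in 43.9% of all genes. None of the 10 passed the threshold after adjustment over all genes (limma, adjusted p from 0.157 to 0.291). At an unadjusted p under 0.05 there were 9 higher, where 9.07% of all genes were. For 9 of the 10 every antithrombin mouse lay above every saline mouse, where this held for 11.2% of all genes. In a bulk sample more cells of a type and more RNA per cell cannot be told apart, so none of these values says whether more cells were in S phase.

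**Figure D2:**
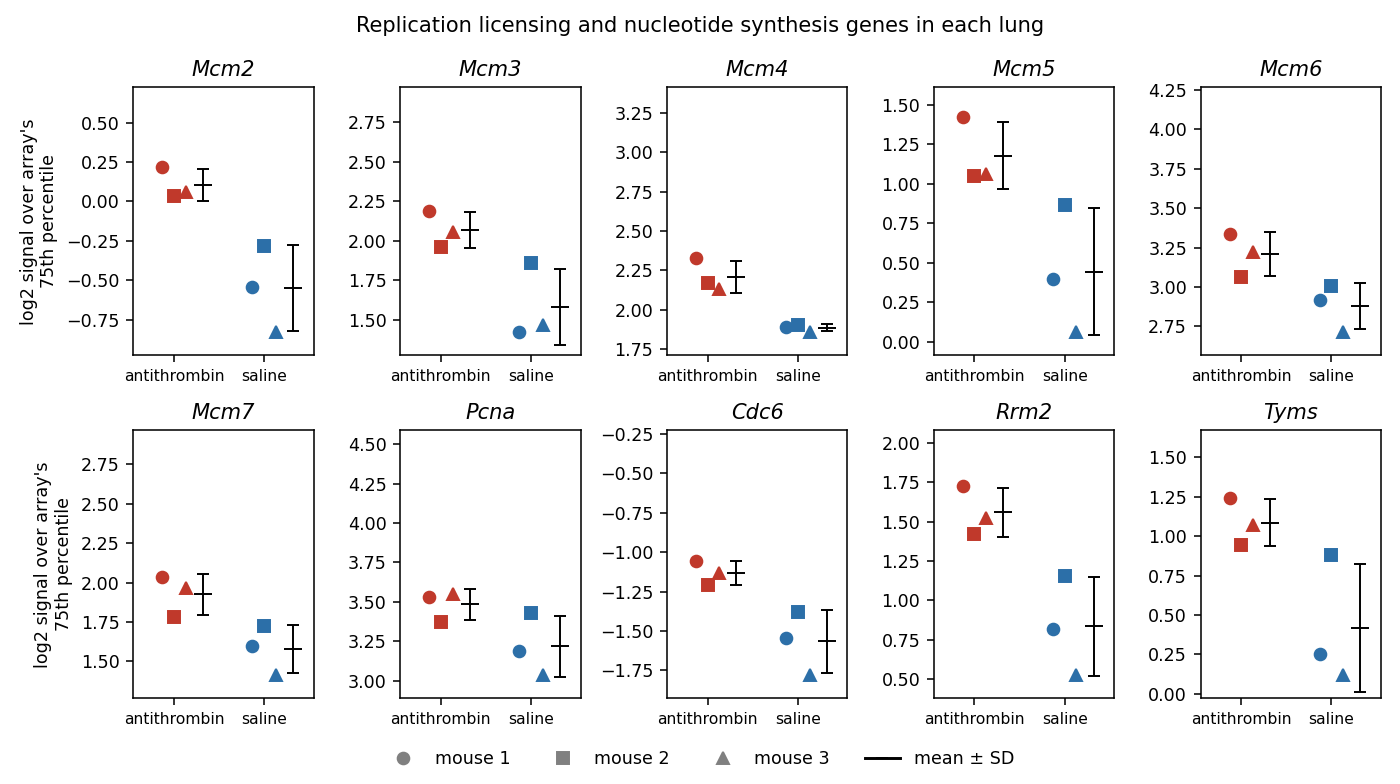
Log2 signal relative to the 75th percentile of the array for each gene in each lung, antithrombin left of saline, with each mouse as a symbol and the mean ± SD (n = 3) beside it. All panels span the same log2 range. The groups overlap for Pcna only, and saline mouse 2 (square) is the highest saline mouse in every panel.

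The MCM subunits form the ring that unwinds DNA ahead of the polymerases. Values below are log2 signals relative to the 75th percentile of each array, which is 0 on this scale, and the levels of different genes are not compared, since probes differ in brightness. Mcm2, which with Mcm5 forms the gate through which the ring opens, had 0.22, 0.03 and 0.06 in antithrombin mice 1, 2 and 3, against -0.54, -0.28 and -0.83 in saline mice 1, 2 and 3. The groups were apart, with saline mouse 2 nearest to the antithrombin mice. The Mcm2 difference was 0.65 (SE 0.16, 95% interval 0.27 to 1.03, limma adjusted p = 0.157).

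Mcm5 had 1.42, 1.05 and 1.06 in antithrombin mice 1, 2 and 3, against 0.40, 0.87 and 0.06 in saline mice 1, 2 and 3. The saline mice were spread widely, with an SD of 0.40 (n = 3) against 0.21 in the antithrombin mice (n = 3), and the groups were apart. Its difference, the largest of the 10, was 0.73 (SE 0.22, 95% interval 0.20 to 1.27, limma adjusted p = 0.169).

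Mcm3 had 2.19, 1.96 and 2.06 in antithrombin mice 1, 2 and 3, against 1.42, 1.86 and 1.46 in saline mice 1, 2 and 3. Saline mice 1 and 3 were low, and saline mouse 2 lay just under the antithrombin mice. The difference was 0.49 (SE 0.15, 95% interval 0.13 to 0.85, limma adjusted p = 0.172).

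Mcm4, Mcm6 and Mcm7 form the core of the helicase ring. Mcm4 had 2.33, 2.17 and 2.13 in antithrombin mice 1, 2 and 3, against 1.89, 1.91 and 1.86 in saline mice 1, 2 and 3. It was the 1 gene of the 10 whose saline mice were the tighter group (SD 0.02 against 0.10 in antithrombin mice, n = 3 each), and saline mouse 2 did not stand out. The Mcm4 difference was 0.32 (SE 0.10, 95% interval 0.07 to 0.57, limma adjusted p = 0.178).

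Mcm6 had 3.34, 3.06 and 3.22 in antithrombin mice 1, 2 and 3, against 2.92, 3.00 and 2.72 in saline mice 1, 2 and 3. The groups were apart by 0.06, between antithrombin mouse 2 and saline mouse 2. The difference was 0.33 (SE 0.13, 95% interval 0.02 to 0.64, limma adjusted p = 0.217).

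Mcm7 had 2.03, 1.78 and 1.96 in antithrombin mice 1, 2 and 3, against 1.60, 1.72 and 1.42 in saline mice 1, 2 and 3. The same pair of mice bounded a gap of 0.06. The difference was 0.35 (SE 0.13, 95% interval 0.04 to 0.66, limma adjusted p = 0.203).

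Cdc6, the ATPase that loads the helicase with the origin recognition complex, had -1.06, -1.21 and -1.13 in antithrombin mice 1, 2 and 3, against -1.54, -1.38 and -1.78 in saline mice 1, 2 and 3. The groups were apart. The Cdc6 difference was 0.43 (SE 0.13, 95% interval 0.12 to 0.75, limma adjusted p = 0.171).

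Pcna, the clamp that tethers polymerases to DNA and also serves in DNA repair, had 3.53, 3.37 and 3.55 in antithrombin mice 1, 2 and 3, against 3.19, 3.43 and 3.04 in saline mice 1, 2 and 3. Saline mouse 2 lay above antithrombin mouse 2, so the groups overlapped. The difference was 0.27 (SE 0.13) with a 95% interval that includes 0, from -0.05 to 0.59 (limma adjusted p = 0.291).

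Rrm2 encodes the radical-bearing subunit of ribonucleotide reductase, the enzyme that makes deoxynucleotides and whose level follows S phase. It had 1.73, 1.42 and 1.53 in antithrombin mice 1, 2 and 3, against 0.82, 1.16 and 0.53 in saline mice 1, 2 and 3. The groups were apart, and the difference was 0.72 (SE 0.18, 95% interval 0.29 to 1.15, limma adjusted p = 0.157).

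Tyms encodes thymidylate synthase, which makes the thymidine nucleotide that DNA requires. It had 1.24, 0.94 and 1.07 in antithrombin mice 1, 2 and 3, against 0.25, 0.88 and 0.12 in saline mice 1, 2 and 3. Saline mouse 2 lay just under antithrombin mouse 2 and far above saline mice 1 and 3. The difference was 0.67 (SE 0.21, 95% interval 0.16 to 1.18, limma adjusted p = 0.177).

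Ordered by their differences, the genes ran Mcm5, Rrm2, Tyms, Mcm2, Mcm3, Cdc6, Mcm7, Mcm6, Mcm4 and Pcna. The 95% intervals overlapped for all 45 pairs of genes, from the highest lower bound of 0.29 for Rrm2 to the lowest upper bound of 0.57 for Mcm4. The genes were measured in the same mice, and differences between genes within a mouse were not tested, so the order is a description. Further probes were present for 5 of the genes, and the 6 probes other than the brightest all gave a positive difference. They gave 0.73 for Cdc6, where the probe used gave 0.43, and 0.62 for Mcm6, where the probe used gave 0.33. The others were close to the probe used, at 0.50 and 0.40 for Mcm3, 0.39 for Mcm7 and 0.61 for Tyms. The groups overlapped at the second Mcm6 probe. There antithrombin mouse 3 had -4.11, against -4.10 and -3.89 in saline mice 1 and 2. They also overlapped at the Mcm3 probe with 0.50, where antithrombin mouse 3 had -1.197 and saline mouse 2 -1.191. The second probes of Mcm6 and Mcm7 were far dimmer than those used. Pcna and Tyms have pseudogenes in the RefSeq table, and probe sequences were not used here, so signal shared with them was not measured.

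**Figure D3:**
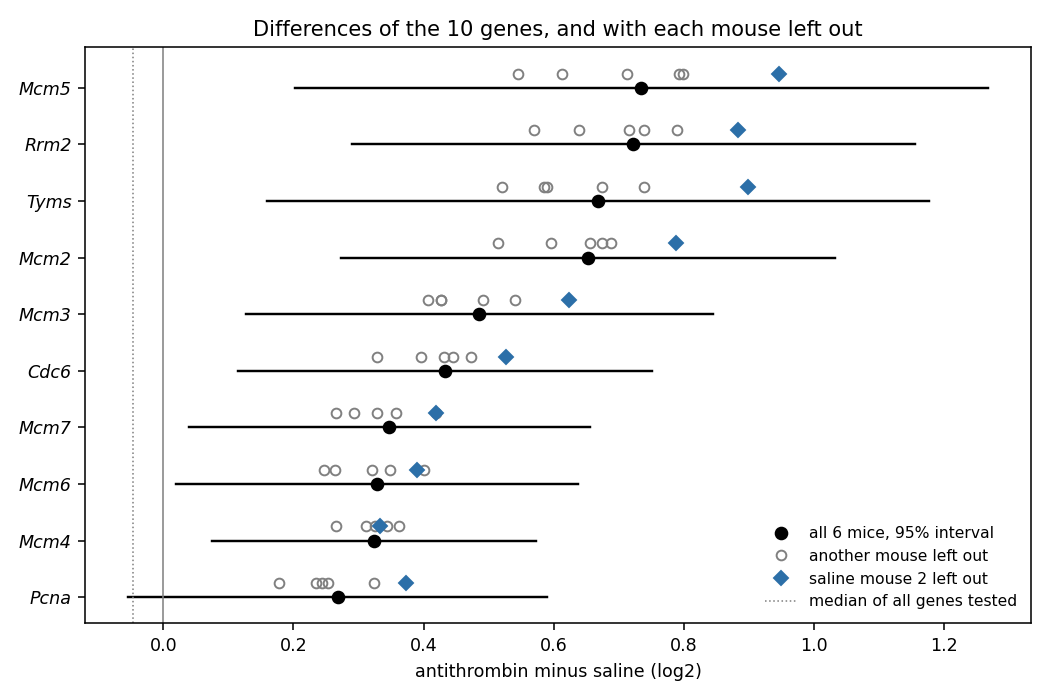
Log2 difference, antithrombin minus saline, of each gene with all 6 mice (filled circles, 95% interval as a line), with saline mouse 2 left out (diamonds) and with each other mouse left out (open circles). Every estimate is above 0, from 0.18 for Pcna without saline mouse 3 to 0.95 for Mcm5 without saline mouse 2.

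The order of the mice was nearly the same for each gene. Among the antithrombin mice, mouse 1 was the highest for 9 of the 10 genes and mouse 2 the lowest for 9. Saline mouse 2 was the highest saline mouse for 10 of 10, and saline mouse 3 the lowest for 9. Averaged over the 10 genes, the log2 signal relative to the mean of the saline mice was 0.62, 0.39 and 0.48 in antithrombin mice 1, 2 and 3, against -0.03, 0.24 and -0.21 in saline mice 1, 2 and 3. The SD was larger among saline mice for 9 of the 10 genes, with a median SD of 0.12 among antithrombin mice and 0.22 among saline mice (n = 3 each). Across the 6 arrays the Pearson r between genes ran from 0.751 to 0.997 over 45 pairs, with a median of 0.958. The genes share their arrays and the group difference, so this is given as a description.

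Leaving out saline mouse 2 enlarged the difference for each of the 10 genes, and all 10 then had an unadjusted p under 0.05, where 13.8% of all genes were higher. Past the adjusted threshold were 5 of the 10, where 4.70% of all genes were higher. These 5 were Mcm2 (0.79, limma adjusted p = 0.0339), Mcm3 (0.62, limma adjusted p = 0.0369), Mcm5 (0.95, limma adjusted p = 0.0369), Rrm2 (0.88, limma adjusted p = 0.0337) and Tyms (0.90, limma adjusted p = 0.0299). Since that mouse was the saline mouse nearest to the antithrombin mice, its removal by itself widens the gap. Without antithrombin mouse 1, the highest of its group for most genes, 2 of the 10 had an unadjusted p under 0.05, where 7.18% of all genes were higher.

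The other genes of origin licensing and firing were mixed, with Cdc45 far from 0 and Cdt1 near it. Of 23 listed and tested, 8 had an unadjusted p under 0.05, all of them higher, where 9.07% of all genes were higher. After adjustment 0 passed (limma), and the median difference was 0.19. Cdc45, which joins the helicase when origins fire, had -2.94, -3.09 and -3.44 in antithrombin mice 1, 2 and 3, against -4.10, -3.77 and -4.30 in saline mice 1, 2 and 3, a difference of 0.89 (SE 0.19). With saline mouse 2 left out, Cdc45 differed by 1.04 (limma adjusted p = 0.0339), and 3 of the 23 genes passed, all of them higher. The kinase gene Cdc7 differed by 0.69 (SE 0.27), and Orc1, the subunit of the origin recognition complex that cycles most, by 0.61 (SE 0.22). Gmnn, which encodes the licensing inhibitor geminin, differed by 0.40 (SE 0.13). The other loader, Cdt1, stood at 0.12 (SE 0.11), the Cdc7 partner Dbf4 at -0.05 (SE 0.12), Orc6 at -0.13 (SE 0.10), Mcm10 at 0.19 (SE 0.12) and the GINS subunit Gins1 at 0.29 (SE 0.14).

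Of 34 replication fork genes, all tested, 15 on the higher side and 1 on the lower had an unadjusted p under 0.05. Over all genes 9.07% were higher and 12.3% lower at that cut. After adjustment 0 of the 34 passed (limma), and their median was 0.24. Pola1, the catalytic subunit of the polymerase that starts each strand, had -0.33, -0.50 and -0.31 in antithrombin mice 1, 2 and 3, against -1.22, -0.99 and -1.54 in saline mice 1, 2 and 3, a difference of 0.87 (SE 0.16). With saline mouse 2 left out, Pola1 differed by 1.00 (limma adjusted p = 0.029), and 7 of the 34 genes passed, all of them higher. The primase subunit Prim1 differed by 0.53 (SE 0.19), the leading and lagging strand polymerases Pole by 0.38 (SE 0.15) and Pold1 by 0.32 (SE 0.12), the clamp loader subunit Rfc4 by 0.29 (SE 0.10), the ligase Lig1 by 0.41 (SE 0.17) and the checkpoint adaptor Clspn by 0.33 (SE 0.11). The flap endonuclease Fen1 stood at 0.07 (SE 0.11). Differences were negative for 9 of the 34. Among them Rpa2, a subunit of the protein that coats single-stranded DNA, was the 1 with an unadjusted p under 0.05, at -0.26 (SE 0.11).

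Of 28 further nucleotide synthesis genes, all tested, 15 had an unadjusted p under 0.05, all of them higher, where 9.07% of all genes were higher. After adjustment 0 passed (limma, 10 without saline mouse 2, all higher), and the median was 0.40. Rrm1, the large subunit of ribonucleotide reductase, had 1.32, 1.06 and 1.00 in antithrombin mice 1, 2 and 3, against 0.74, 0.95 and 0.51 in saline mice 1, 2 and 3. Its difference was 0.39 (SE 0.15), and that of Rrm2b, the p53-induced alternative to Rrm2, was -0.05 (SE 0.11). In the thymidylate cycle around Tyms, the serine hydroxymethyltransferase gene Shmt1 differed by 0.41 (SE 0.10). Dut, whose product makes the substrate of thymidylate synthase, differed by 0.34 (SE 0.11), and the deaminase gene Dctd, on the same route, by 0.54 (SE 0.35), with groups that overlapped. The salvage kinases Tk1 and Dck differed by 0.33 (SE 0.13) and 0.56 (SE 0.12), and Impdh2, of guanine nucleotide synthesis, by 0.45 (SE 0.15).

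Of 30 genes of G1/S control, 29 were tested and Ccne2 did not pass the background test on any array. An unadjusted p under 0.05 was reached by 12 on the higher side and 3 on the lower, where 9.07% of all genes were higher and 12.3% lower, 0 passed after adjustment (limma; 4 higher and 1 lower, Tfdp2, without saline mouse 2), and the median was 0.29. The cyclin Ccne1 differed by 0.57 (SE 0.16) and the E2F family repressor E2f8 by 0.58 (SE 0.17), while the E2F activators E2f1 and E2f2 stood at 0.28 (SE 0.16) and 0.19 (SE 0.16). Cdk2, Ccnd1 and the retinoblastoma gene Rb1 stood at 0.09 (SE 0.13), 0.24 (SE 0.25) and -0.10 (SE 0.11). Cdkn1a, which encodes the cell cycle inhibitor p21, had 3.17, 3.32 and 2.78 in antithrombin mice 1, 2 and 3, against 3.53, 3.52 and 3.61 in saline mice 1, 2 and 3. Each antithrombin mouse lay under each saline mouse, which held for 17.4% of all genes, and the difference was -0.46 (SE 0.16, limma adjusted p = 0.186). The other 2 genes that were lower at an unadjusted p under 0.05 were named after their values were seen. They were the p27 gene Cdkn1b (-0.30, SE 0.11) and Tfdp2, a partner of E2F factors (-0.77, SE 0.17). Cdkn1c, the p57 gene of the same inhibitor family, also named after its value was seen, stood on the higher side at 0.34 (SE 0.14), with the groups apart.

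**Figure D4:**
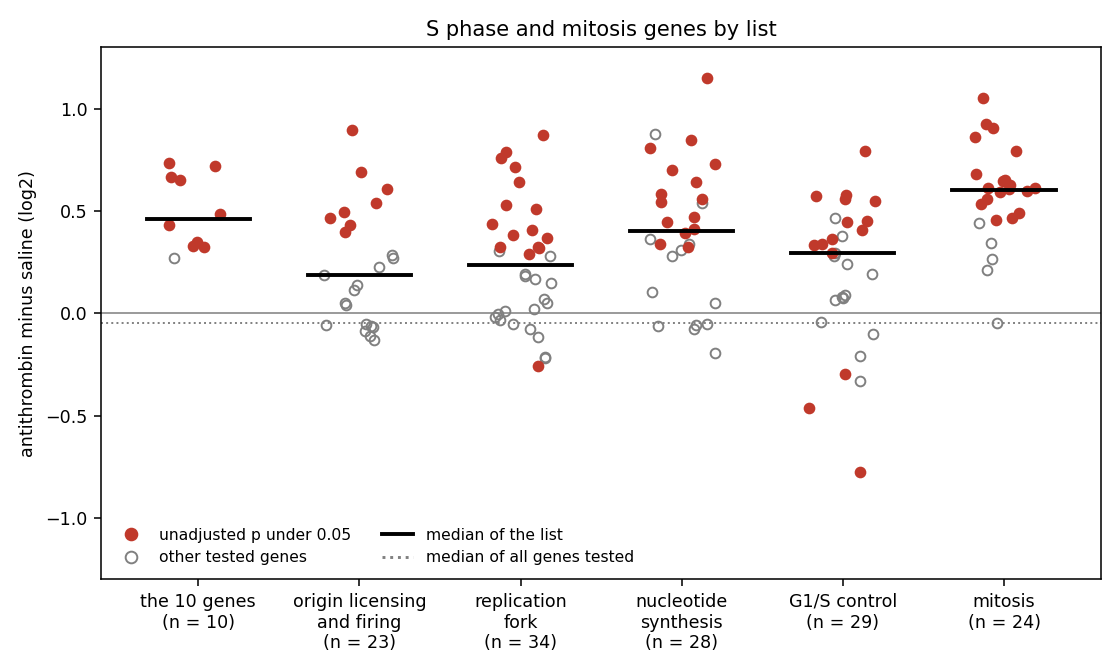
Log2 difference, antithrombin minus saline, of each tested gene of the 10 genes and of 5 further lists. Filled points have an unadjusted p under 0.05, the thick bar is the median of the list, and the dotted line is the median of all genes tested (-0.0459); medians run from 0.19 for origin licensing and firing to 0.60 for mitosis.

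Genes of mitosis, the later stage of the same cycle, were set beside the 10 genes without a test between the lists. Of 24 mitosis genes, all tested, 19 had an unadjusted p under 0.05, all of them higher, where 9.07% of all genes were higher. After adjustment 0 passed (limma, 7 without saline mouse 2, all higher), and the median was 0.60. The proliferation marker Mki67 differed by 0.65 (SE 0.20), Top2a by 0.93 (SE 0.21), Ccnb1 by 0.61 (SE 0.16), Cdk1 by 0.68 (SE 0.17) and Plk1 by 0.61 (SE 0.17). Averaged over the mitosis genes, the log2 signal relative to the mean of the saline mice was 0.70, 0.43 and 0.61 in antithrombin mice 1, 2 and 3, against 0.08, 0.21 and -0.30 in saline mice 1, 2 and 3, the same order of mice as for the 10 genes. In the 5 lists together, an unadjusted p under 0.05 was reached by 69 of 138 tested genes on the higher side and by 4 on the lower. Over all genes 9.07% were higher and 12.3% lower at that cut. With saline mouse 2 left out, 31 were higher and 1 lower past the adjusted threshold (limma), where 4.70% of all genes were higher and 5.49% lower.

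Markers of neutrophils had positive differences for 10 of the 11 tested. Of 12 listed, 11 were tested, all well above background on all 6 arrays, and 4 (Camp, Cxcr2, Mmp8 and Mmp9) had an unadjusted p under 0.05 on the higher side and 0 on the lower, where 9.07% of all genes were higher and 12.3% lower. With saline mouse 2 left out there were 7 on the higher side, where 13.8% of all genes were higher. Past the adjusted threshold were 2, Camp (limma adjusted p = 0.0268) and Mmp9 (limma adjusted p = 0.0411), where 4.70% of all genes were higher. Camp, an antimicrobial peptide of neutrophil granules, differed by 1.22 (SE 0.32), and the neutrophil chemokine receptor Cxcr2 by 0.68 (SE 0.21). Ltf differed by 1.21 (SE 0.59), with groups that overlapped. Other markers were nearer 0, with S100a8 at 0.30 (SE 0.17), Retnlg at 0.22 (SE 0.14) and S100a9 at 0.15 (SE 0.13). Il1r2 stood at 0.04 (SE 0.23) and Csf3r at -0.005 (SE 0.11), so the rise was not shared by all markers. Averaged in the same way, the 11 tested markers stood at 0.58, 0.51 and 0.42 in antithrombin mice 1, 2 and 3, against -0.20, 0.34 and -0.14 in saline mice 1, 2 and 3. The summed signal of these markers, in units of the 75th percentile of the array, was 812 to 934 in antithrombin mice and 692 to 857 in saline mice, so the groups overlapped through saline mouse 2. The part of neutrophils in the differences of the 10 genes was not tested.

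**Figure D5:**
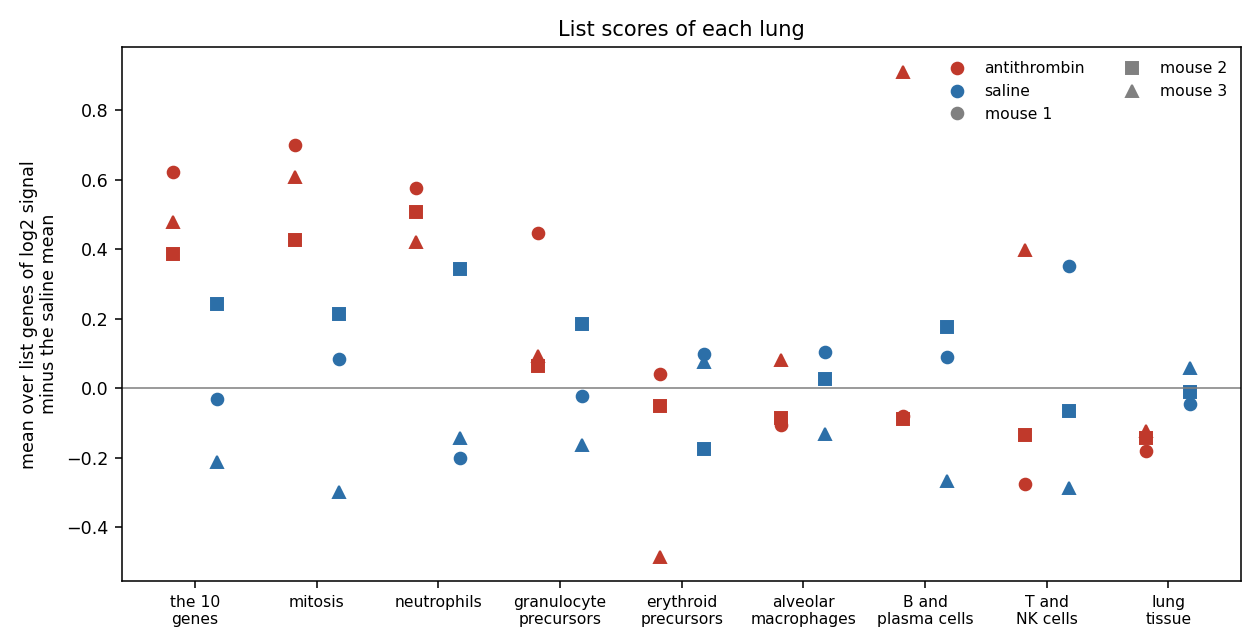
Mean over the tested genes of each list of the log2 signal minus the saline mean, in each lung, antithrombin (red) left of saline (blue), with symbols for mouse numbers. Antithrombin mice lie above saline mice for the 10 genes, mitosis and neutrophils, and below them for lung tissue markers.

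Markers of the other cell types listed overlapped between the groups in their summed signal. Each sum adds linear signals, so it largely follows the brightest markers. These were Hemgn for erythroid precursors, Xbp1 for B and plasma cells and Gzma for T and NK cells. An overlap of sums is therefore no measure of cell numbers. At an unadjusted p under 0.05, 9.07% of all genes were higher and 12.3% lower. Single genes at that cut in lists this small are not read as a result. Granulocyte precursor markers, all 6 tested, had summed signals of 4.31 to 5.27 in antithrombin mice and 4.30 to 4.97 in saline mice, and 1, Prtn3 (0.45, SE 0.18), had an unadjusted p under 0.05. Among them the elastase gene Elane differed by 0.14 (SE 0.30) and the myeloperoxidase gene Mpo by -0.04 (SE 0.27). Erythroid precursor markers, 5 tested of 7, had sums of 36.2 to 52.6 in antithrombin mice and 35.8 to 40.6 in saline mice, with Tfrc higher (0.56, SE 0.15) and Epor lower (-0.68, SE 0.17) at an unadjusted p under 0.05. Alveolar macrophage markers, 8 tested of 8, had sums of 226 to 264 in antithrombin mice and 234 to 286 in saline mice. Their differences were positive for 4 and negative for 4, with a median of 0.004. Car4 (0.32, SE 0.13) was the 1 with an unadjusted p under 0.05. Marco stood at -0.53 (SE 0.33) and Krt79 at -0.32 (SE 0.14).

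B and plasma cell markers, 8 tested of 8, had sums of 38.3 to 48.4 in antithrombin mice and 38.5 to 40.7 in saline mice. Their differences were positive for 6 and negative for 2. Jchain (1.02, SE 0.41) was the 1 with an unadjusted p under 0.05, where 9.07% of all genes were higher. Its groups overlapped, with -5.26 in antithrombin mouse 1 and -5.10 in saline mouse 1, and its highest value was -3.74 in antithrombin mouse 3. T and NK cell markers, 9 tested of 9, had sums of 22.1 to 43.5 in antithrombin mice and 21.4 to 34.9 in saline mice, and none had an unadjusted p under 0.05 (0 of 9, limma). Antithrombin mouse 3 was the highest mouse for both of these lists, while for the 10 genes it lay between the other antithrombin mice. Lung tissue markers had a median difference of -0.10, with 10 of the 11 differences negative. The groups were apart on the lower side for 3 of the 11, Hopx, Sftpa1 and Sftpd, where this held for 17.4% of all genes. The alveolar type 1 gene Hopx (-0.52, SE 0.12) was the 1 of the 11 with an unadjusted p under 0.05. Over all genes 12.3% were lower at that cut. With saline mouse 2 left out, Hopx passed the adjusted threshold on the lower side (limma adjusted p = 0.0431), as did Epor (limma adjusted p = 0.0277). Tfrc (limma adjusted p = 0.0385) and the granulocyte precursor gene Ms4a3 (limma adjusted p = 0.0247) then passed on the higher side. Without that mouse, 4.70% of all genes were higher and 5.49% lower past the threshold. The sums of the lung tissue markers were 1434 to 1609 in antithrombin mice and 1571 to 1695 in saline mice.

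Named genes whose pattern over the 6 arrays was most like the mean of the 10 genes were sought among 15150 genes outside all lists that were well above background on all arrays. Among the 5 most alike were Eme1 (Pearson r = 0.998), a subunit of a structure-specific DNA endonuclease, Cdk7 (r = 0.997), a kinase that activates other cyclin-dependent kinases, Clec5a (r = 0.996), a lectin receptor of myeloid cells, and Ncapd2 (r = 0.996), a subunit of condensin. Each ordered the 6 mice as the mean of the 10 genes did. They were chosen for that likeness, so this order and the sign of their differences largely follow from the choice. Their differences were 0.49 (SE 0.15) for Eme1, 0.39 (SE 0.13) for Cdk7, 0.62 (SE 0.16) for Clec5a and 0.47 (SE 0.13) for Ncapd2.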

How the data were processed

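RNA from 6 lungs was hybridised to 1 slide, 1 array per mouse, and groups and mouse numbers came from the sample titles. Each label names a mouse, so n counts mice. The scanner output deposited for each array gives intensity per spot, made, per the file headers, with Agilent Feature Extraction 10.7.3.1 (9.1 in the submitters' processing notes). The processed signal is background-subtracted and not scaled between arrays. The deposited table of log2 values was centred per probe and matched the scanner signal within 0.01 for 100% of values once a shift for each array was removed. Its scaling and the origin of its centring are unknown, and its column medians ran from -0.0372 to 0.077.

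The signal was taken to log2 and set relative to the 75th percentile of non-control spots on its array. Control and outlier spots were left out, spots of a probe averaged, and a probe without a value on every array dropped. Unversioned accessions matched RefSeq transcripts of GRCm38.p6 for 32994 of 56605 probes. The array design names another build, so genes have names only, and the promoter windows carry RefSeq coordinates. Testing required a probe to pass the scanner's background test on 3 or more arrays.

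Differences were tested two-sided by limma 3.58.1 (lmFit, eBayes; R 4.3.3), with Benjamini-Hochberg adjustment over all genes at 0.05. The code was tested on simulated data. The 10 genes, the lists and the named genes (all 10, fixed genes of each list, and the 5 most alike over arrays) were chosen with earlier results of these data known. Some of the genes these rules and lists name are not reported here. Alternatives were other background corrections, scalings, filters, probe rules and variance models, the value table, array weights, blocks and leaving out each mouse. Normexp used the median signal, as the files hold no mean signal. Motifs were searched as exact words. Figures were drawn with matplotlib 3.10.9.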

Additional observations from a re-analysis of the deposited data

How the results depend on the processing

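All 10 genes kept a positive difference under all 17 alternatives (170 of 170 values). Many of these values could not have changed sign. The other filters on dim probes, the trended and robust variance and the blocks left each difference itself unchanged. Leaving out 1 mouse cannot turn the sign of a gene whose groups are apart. The median of the 10 genes, 0.46, had its lowest value, 0.38, with saline mouse 3 left out and its highest, 0.58, with saline mouse 2 left out. No gene of the 10 passed the adjusted threshold using all arrays (limma, 9 at an unadjusted p under 0.05). With array weights 5 passed, the same 5 as without saline mouse 2, and 0 passed under each other alternative. The weights gave saline mouse 2 the lowest value, 0.387, against 0.717 to 1.96 for the other mice. These 2 alternatives are therefore not independent. Leaving out each mouse in turn gave 0 to 5. The count at an unadjusted p under 0.05 was 2 when antithrombin mouse 1 was left out, 5 when saline mouse 1 was, 6 when saline mouse 3 was and 10 when saline mouse 2 was. Over all genes 7.18% were higher at that cut without antithrombin mouse 1 and 13.8% without saline mouse 2. That share is not given for the other alternatives, so their counts stand without it. Of the 138 genes of the 5 further lists, 0 passed with all arrays, 26 with array weights and 0 to 32 when 1 mouse was left out. Over all genes the count past the threshold was 2, and it was 2704 with array weights, 1 with quantile normalization, median scaling, no filter on dim probes, the stricter filter, a trended and robust variance or the array row as a block, and 0 to 3304 when 1 mouse was left out (3304 with saline mouse 2 left out). With the mouse number as a replicate block, 0 genes passed overall and 6 of the 10 had an unadjusted p under 0.05. Same-numbered mice did not deviate together (r of deviations -0.00947, -0.163 and -0.275). With 3 mice per group these values cannot settle whether the numbers pair mice, and the main comparison treats the mice as unpaired. Across other scalings and background corrections the Mcm5 difference ran from 0.70 to 0.75 and that of Pcna from 0.25 to 0.31. Precision is limited by 3 arrays per group, and signal over background did not limit the 10 genes, which were detected on every array.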

Other observations

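Within the MCM ring the 3 subunits Mcm2, Mcm3 and Mcm5 had differences of 0.49 to 0.73, and Mcm4, Mcm6 and Mcm7 had 0.32 to 0.35. This split was chosen after the values were seen and was given no test. The mean log2 signal of the first 3 less that of the other 3 was -1.29, -1.33 and -1.38 in antithrombin mice 1, 2 and 3, against -1.71, -1.40 and -1.77 in saline mice 1, 2 and 3. Saline mouse 2 lay next to the antithrombin mice here too. The second Mcm6 probe, at 0.62, did not follow the split.

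Several nucleotide synthesis genes outside the named ones, chosen here after their values were seen, had differences at least as large as Tyms. Mthfd2 and Shmt2, of the mitochondrial folate cycle, stood at 1.15 (SE 0.25) and 0.70 (SE 0.23). Cad, which starts pyrimidine synthesis, stood at 0.85 (SE 0.26), and the purine synthesis gene Atic at 0.73 (SE 0.23). Their limma adjusted p-values were between 0.154 and 0.177. Tfdp1, a relative of Tfdp2 and like it a partner of E2F factors, stood at 0.45 (SE 0.13), while Tfdp2 stood at -0.77 (SE 0.17).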
